A study of Mus musculus with 54 samples.

Results

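The BCL2 family genes of mouse naive CD4+ T cells were followed at rest and during stimulation through the T cell receptor and CD28. The set was a list of 10 gene symbols, of 55385 genes in each count table: the pro-survival genes Bcl2, Bcl2l1 (which encodes BCL-XL), Mcl1 and Bcl2a1b (one of the A1 genes), the BH3-only genes Bcl2l11 (BIM), Bbc3 (PUMA) and Pmaip1 (NOXA), Bid, and the effector genes Bax and Bak1. All 10 had reads in both tables, in which 32290 and 27780 genes had at least 1 read. Cells came from C57BL/6 mice. RNA was taken from unstimulated cells (0 h) or after 4 h or 20 h on plate-bound anti-CD3 (3 µg/ml) with anti-CD28 (1 µg/ml), with 3 libraries for each of 18 conditions. The CD5/CD6 experiment had 36 libraries from WT, Cd5-/- (labelled CD5KO), Cd6-/- (CD6KO) and Cd5-/-Cd6-/- (dKO) mice, whose cells were enriched magnetically from lymph nodes and spleens that had been pooled. CD5 and CD6 are surface receptors of T cells. The LAT experiment had 18 libraries. Its Lat-/- cells (LatKO, negative for the human diphtheria toxin receptor, hDTR) and its WT cells (hDTR+) were sorted by flow cytometry from pooled organs of mice with a floxed Lat allele and maT-Cre, which drives Cre in mature T cells, so that both groups came from mice carrying Cre. LAT is the adaptor through which the T cell receptor reaches its main signaling pathways.

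Pro-survival BCL2 proteins hold the effectors BAX and BAK in check at the mitochondrial outer membrane. BH3-only proteins bind the pro-survival proteins and release or activate the effectors, which then permeabilize that membrane and start the caspase cascade. In naive T cells BCL2 and MCL1 are known as survival factors, and BCL-XL and A1 are known to be induced on activation.

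Total counts ranged from 20554354 to 45222554 in the CD5/CD6 experiment and from 17784644 to 28501095 in the LAT experiment. Lat was at 11.6 to 19.1 CPM (counts scaled to a library of 1000000) in unstimulated Lat-/- libraries against 214 to 292 CPM in WT libraries. In the dKO libraries at 0 h, Cd5 and Cd6 were both under 1 CPM. At 0 h, however, the library 2 labelled CD5KO held Cd5 at 719 CPM and Cd6 at 329 CPM, whereas the libraries 1 and 3 with that label held Cd5 at 129 and 105 CPM. The library 2 labelled CD6KO held Cd5 at 172 CPM and Cd6 at 1200 CPM, whereas the libraries 1 and 3 with that label held Cd6 at 349 and 251 CPM. These 2 libraries went against their labels, which were kept, and each was near the libraries of the other label in the gene which that label names. Whether the 2 were exchanged was not tested. Counts of members called and the named responses that rest on them are also given without them, whereas shares of all genes, shares among pro-survival genes and correlations include them. T cell identity genes (Cd3e, Cd3d, Cd3g and Cd4 summed) were at 3680 to 4710 CPM in the unstimulated LAT experiment libraries, and B cell markers (Cd79a, Cd79b and Ms4a1 summed) at 1.44 to 4.70 CPM. In bulk RNA, fewer cells of a type and less RNA per cell cannot be told apart.

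The Bcl2a1 genes are near-identical copies on chromosome 9, and reads of Bcl2a1b could have been split among them. Bcl2a1b (ENSMUSG00000089929.1, GRCm38) spans chr9:89199209-89207827, Bcl2a1a chr9:88956900-88962419 and Bcl2a1d chr9:88723285-88731914. Their coding sequences of 516 bases differed at 12 positions in all, and Bcl2a1b was 98.8% identical to Bcl2a1d and 97.9% to Bcl2a1a. The first 50 coding bases, read 5′ to 3′ from GENCODE M21 transcripts of GRCm38, held 6 of these positions and are shown because reads can tell the copies apart only at such places (capitals mark positions at which the copies differ).
Bcl2a1a: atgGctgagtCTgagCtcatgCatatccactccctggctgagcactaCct
Bcl2a1b: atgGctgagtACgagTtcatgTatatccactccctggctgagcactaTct
Bcl2a1d: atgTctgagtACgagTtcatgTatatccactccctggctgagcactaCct
Of the 50-base windows of the Bcl2a1b transcript, 79.2% also occurred in a transcript of another gene (Bcl2a1a, Bcl2a1c, Bcl2a1d or Gm29094). Gm29094 overlaps 49.1% of the exon bases of Bcl2a1b on the same strand. Bcl2a1b values are therefore uncertain in level, and the tests were repeated with the 3 copies summed. Summing would not recover reads left uncounted over Gm29094 or for having several matches. Among the other members, windows shared with another gene made up 17.1% for Bak1 (Ggnbp1), 16.4% for Bid (Bcl2l13) and 8.51% for Bax (Gm45808), and 5.25% or less for the rest. Ggnbp1 and Bcl2l13 lie on the opposite strand, and because the use of strand in counting was not stated, reads of these overlaps cannot be told apart.

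In GRCm38, Bcl2l1 spans chr2:152780668-152831728, Bcl2 chr1:106538178-106714274, Bid chr6:120891930-120916853, Bax chr7:45461697-45466898 and Bak1 chr17:27019810-27029009, all on the - strand. Mcl1 spans chr3:95658788-95663176, Bcl2l11 chr2:128126038-128162547 and Bbc3 chr7:16308393-16318205 on the + strand. The sequence ahead of the start site is shown for the 2 members that rose most in WT cells at 20 h, Bcl2a1b and Bcl2l1, and for Bcl2l11 and Bbc3, which rose in stimulated Lat-/- cells. Sequences are RefSeq promoters of GRCm38.p6, 5′ to 3′ on the gene's strand, without annotated exons. Capitals mark matches, on either strand, to motifs named for AP-1 (TGANTCA), FOXO (GTAAACA), the E-box (CACGTG), EGR (GCGTGGGCG) and NF-kappaB (GGG and CC with 5 bases between them).
Bcl2a1b, chr9:89199023-89199208 (+ strand): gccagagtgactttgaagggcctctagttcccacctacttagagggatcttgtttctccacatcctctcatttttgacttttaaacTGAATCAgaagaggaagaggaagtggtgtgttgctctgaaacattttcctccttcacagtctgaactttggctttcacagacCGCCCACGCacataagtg
Bcl2l1, chr2:152831729-152831978 (- strand): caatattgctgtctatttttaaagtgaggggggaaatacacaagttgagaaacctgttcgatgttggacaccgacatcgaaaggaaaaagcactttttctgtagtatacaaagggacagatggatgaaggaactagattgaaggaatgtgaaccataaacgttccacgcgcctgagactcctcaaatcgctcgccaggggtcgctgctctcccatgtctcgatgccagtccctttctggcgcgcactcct
Bcl2l11, chr2:128125788-128126037 (+ strand): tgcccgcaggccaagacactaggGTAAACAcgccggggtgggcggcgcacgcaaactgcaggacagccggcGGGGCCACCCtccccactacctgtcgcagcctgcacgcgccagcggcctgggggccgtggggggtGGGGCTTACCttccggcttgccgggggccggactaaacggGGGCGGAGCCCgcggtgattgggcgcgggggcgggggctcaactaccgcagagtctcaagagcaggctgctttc
Bbc3, chr7:16310011-16310260 (+ strand, within the span of the gene): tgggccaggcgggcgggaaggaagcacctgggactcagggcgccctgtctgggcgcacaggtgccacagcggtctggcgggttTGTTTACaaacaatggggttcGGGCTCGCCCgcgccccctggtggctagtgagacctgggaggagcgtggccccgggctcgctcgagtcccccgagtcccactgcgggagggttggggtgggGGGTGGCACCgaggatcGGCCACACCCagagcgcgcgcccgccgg
Bcl2a1b held an AP-1 match 164 bases and an EGR match 82 bases before its RefSeq start. Such matches are held by 7.81% and 0.612% of all 32851 promoters of the same length. This start lies inside the annotated first exon, so the stretch shown, cut at that exon, ends before it. A FOXO match, found in 3.65% of promoters, lay 227 bases before this Bcl2l11 start and 167 bases before this Bbc3 start. It was in no other of the 14 promoters of the 9 members that matched. Bcl2l11 and Bbc3 also have other promoters, not shown, which held no FOXO match. The stretch shown for Bcl2l1 held none of these letters. Another Bcl2l1 promoter, not shown because it began within an annotated exon, held NF-kappaB letters 242 and 218 bases before its start. The NF-kappaB letters were in 50.8% of all promoters. These matches are letters in a window, not binding sites.

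In stimulated WT cells the pro-survival genes moved in opposite directions. Bcl2l1 and Bcl2a1b rose, Bcl2 and Mcl1 fell by 20 h, and the effector genes and Bid rose while Bbc3 fell. Here and below, rises, falls and differences are relative to the counts of a library, and transcript per cell was not measured. In the LAT experiment, 6 of 10 members were called at 4 h (adjusted p under 0.05 in edgeR's quasi-likelihood test across all genes), as were 29% of all genes tested, and 10 of 10 at 20 h, as were 34.7% of all genes. The members had means of 116 to 18837 counts in that experiment, and of the genes that averaged 50 counts or more, 65.1% and 71% were called. In the CD5/CD6 experiment, 7 members were called at 4 h (28.5% of all genes, 66.3% of genes with at least 50 counts) and 8 at 20 h (37.9% and 75%). The members' share was thus near that of well measured genes at 4 h. Between 4 h and 20 h, 6 members were called in the CD5/CD6 experiment (30.5% of all genes) and 7 in the LAT experiment (29.5%). With a fold change above 2 as well, 6 members were called at 20 h against 0 h in the LAT experiment (23.5% of all genes) and 3 at 20 h against 4 h in the CD5/CD6 experiment (21%). Where only the share of all genes is given, here and below, that of genes with at least 50 counts was not computed. It was the higher share wherever both were computed, so such counts do not set the members apart from well measured genes. The median log2 fold change of the 10 at 20 h was 0.68 in the LAT and 0.71 in the CD5/CD6 experiment, against 0 over all genes.

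**Figure D1:**
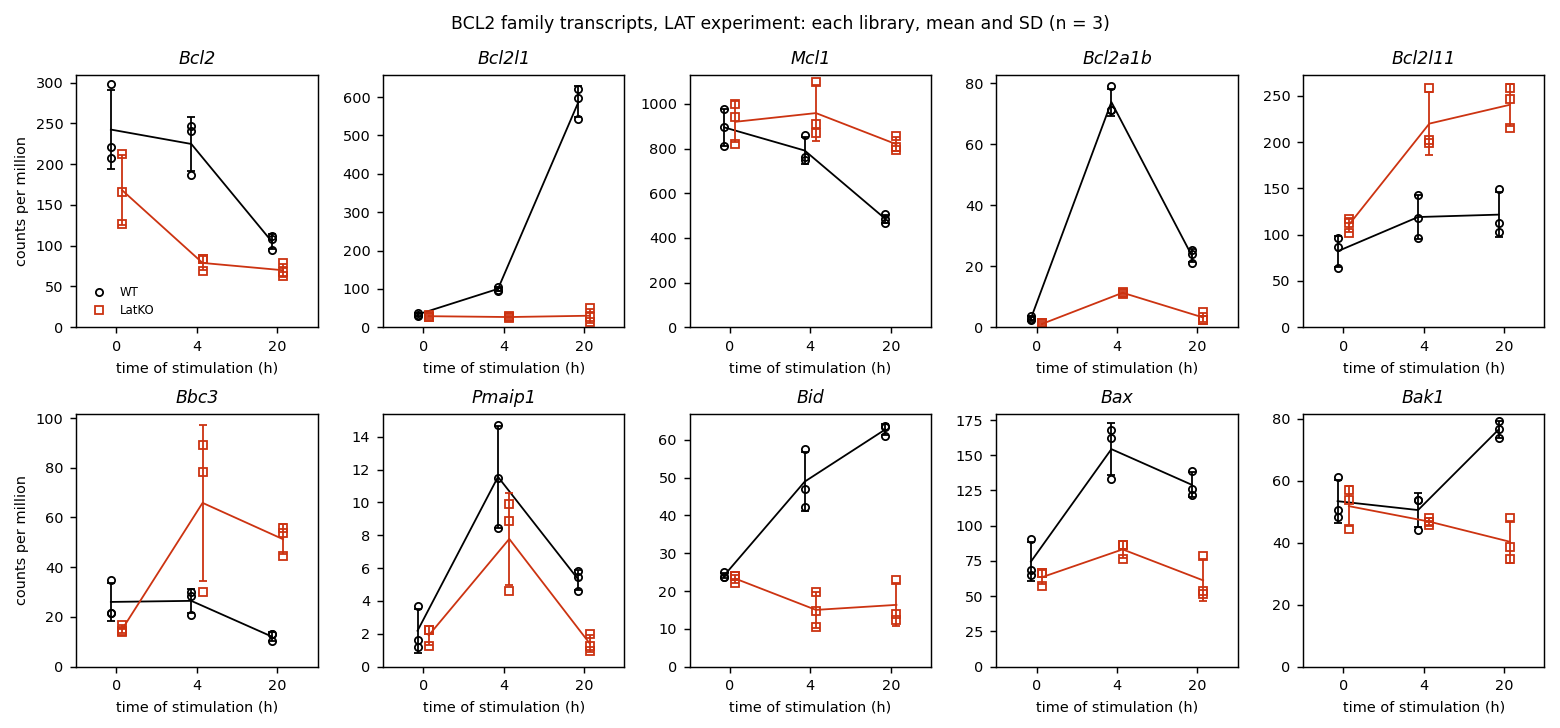
BCL2 family transcripts in the LAT experiment, in CPM (linear axis from 0) against time of stimulation in h. Open symbols are single libraries, lines join the means and bars are the SD of 3 libraries. Bcl2l1 reached 543 to 622 CPM in WT libraries at 20 h and 14.2 to 49.8 CPM in Lat-/- libraries, and Bbc3 at 20 h was at 44.4 to 55.6 CPM in Lat-/- and 10.1 to 13.1 CPM in WT libraries.

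Bcl2l1 was at 29.5, 37.1 and 32.9 CPM in the 3 unstimulated WT libraries of the LAT experiment, at 106, 98.4 and 95.8 CPM at 4 h, and at 543, 598 and 622 CPM at 20 h. No 2 times overlapped. Its log2 fold change was 1.59 ± 0.15 (SE) at 4 h (adjusted p = 1.4e-23, edgeR) and 4.15 ± 0.17 at 20 h (adjusted p = 4.13e-129, edgeR). In WT libraries of the CD5/CD6 experiment it went from 25.6 to 35.9 CPM at 0 h to 125 to 131 CPM at 4 h and 473 to 492 CPM at 20 h, a log2 fold change of 3.90 ± 0.17 at 20 h. Between 4 h and 20 h the BCL-XL transcript rose further, by 2.55 ± 0.16 in the LAT and 1.91 ± 0.16 in the CD5/CD6 experiment.

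Bcl2a1b peaked early. In the LAT experiment its WT libraries were at 2.24, 3.68 and 2.70 CPM at 0 h, at 78.9, 71.2 and 71.3 CPM at 4 h, and at 21.1, 25.4 and 23.9 CPM at 20 h. The log2 fold change against 0 h was 4.68 ± 0.22 at 4 h and 3.03 ± 0.21 at 20 h, and between 4 h and 20 h Bcl2a1b fell by 1.65 ± 0.19 on the log2 scale (adjusted p = 2.47e-17, edgeR). In the CD5/CD6 experiment the corresponding values were 5.12 ± 0.25, 3.87 ± 0.24 and -1.25 ± 0.21. The early peak was thus present in the WT cells of both experiments, and these calls held with the 3 copies summed.

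Bcl2 was not called at 4 h and was lower at 20 h. Its WT libraries in the LAT experiment were at 221, 208 and 298 CPM at 0 h, 240, 247 and 187 CPM at 4 h, and 108, 112 and 95.2 CPM at 20 h, a log2 fold change of -1.21 ± 0.15 at 20 h (adjusted p = 1.38e-14, edgeR). In the CD5/CD6 experiment Bcl2 fell by 1.75 ± 0.21 on the log2 scale. Mcl1, whose protein is short-lived, went from 812, 897 and 976 CPM to 468, 485 and 505 CPM at 20 h in the LAT experiment, a log2 fold change of -0.88 ± 0.15 (adjusted p = 1.32e-08, edgeR), and fell by 1.14 ± 0.15 in the CD5/CD6 experiment. At 4 h Mcl1 differed from 0 h by -0.18 ± 0.15 and -0.23 ± 0.15, which did not pass the test. When libraries were scaled by their totals alone, which shifted every gene's 4 h response by -0.24 in both WT groups, Mcl1 passed at 4 h, at -0.41 (adjusted p = 0.0123, edgeR) and -0.47 (adjusted p = 0.00299, edgeR).

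Among genes that promote death, the direction depended on the gene. Bbc3 was at 21.4, 35.0 and 21.6 CPM in unstimulated WT libraries of the LAT experiment and at 10.1, 13.1 and 13.0 CPM at 20 h, a log2 fold change of -1.11 ± 0.17. At 4 h it stood at 28.5, 20.8 and 30.0 CPM there (0.03 ± 0.17, not called), whereas in the CD5/CD6 experiment it had fallen by 1.40 ± 0.19 at 4 h, from 23.3 to 37.1 CPM at 0 h to 9.93 to 11.7 CPM. The tables were not fitted together, so this difference between experiments was not tested. Pmaip1, whose product NOXA binds MCL1, was transiently higher: 1.22 to 3.71 CPM at 0 h, 8.46 to 14.7 CPM at 4 h and 4.62 to 5.79 CPM at 20 h in the LAT experiment, with log2 fold changes of 2.39 ± 0.28 and 1.26 ± 0.28. It rose by 1.30 ± 0.22 at 4 h in the CD5/CD6 experiment and stood at 0.50 ± 0.22 at 20 h (adjusted p = 0.0626, edgeR), which passed with filterByExpr (0.53, adjusted p = 0.025, edgeR) and without WT library 1 at 20 h (0.61, adjusted p = 0.0408, edgeR). Bcl2l11 had small changes, 0.54 ± 0.15 at 4 h and 0.57 ± 0.15 at 20 h in the LAT experiment, and 0.44 ± 0.16 and 0.05 ± 0.16 in the CD5/CD6 experiment. Between 4 h and 20 h in the latter it stood at -0.39 ± 0.16 (adjusted p = 0.0581, edgeR), which passed under DESeq2 (-0.44, adjusted p = 0.0111), relative log expression factors (-0.44, adjusted p = 0.0255, edgeR), filterByExpr (-0.37, adjusted p = 0.0351, edgeR) and a fit of only the groups compared (-0.42, adjusted p = 0.0198, edgeR). Its 4 h calls were lost under scaling by library totals (0.29 and 0.20). They were also lost when WT library 2 at 4 h of the LAT experiment was left out (0.35, adjusted p = 0.127, edgeR) or, in the CD5/CD6 experiment, any of the WT libraries 2 and 3 at 0 h or 4 h (0.32 to 0.44). The 20 h call was lost without WT library 3 at 20 h (0.39, adjusted p = 0.0649, edgeR).

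Bid, which links death receptor signaling to mitochondria once it is cleaved, rose in both experiments, by 1.02 ± 0.17 (4 h) and 1.38 ± 0.17 (20 h) in the LAT experiment and by 1.26 ± 0.15 and 1.47 ± 0.15 in the CD5/CD6 experiment. Bax rose by 1.05 ± 0.15 and 0.79 ± 0.15 in the LAT experiment and by 1.18 ± 0.17 and 1.34 ± 0.17 in the CD5/CD6 experiment. Bak1 rose later: it was at 44.2 to 53.8 CPM at 4 h and 73.7 to 79.3 CPM at 20 h in the LAT experiment (0.52 ± 0.16 against 0 h, adjusted p = 0.00336, edgeR), and rose by 0.93 ± 0.15 at 20 h in the CD5/CD6 experiment. The share of counts from mitochondrial genes was 1.85 to 2.34% at 0 h and 0.973 to 1.07% at 20 h in WT libraries of the LAT experiment, and 2.12 to 2.54% and 0.488 to 0.959% in those of the CD5/CD6 experiment. Markers of other cells moved with time in the CD5/CD6 experiment, in which the summed B cell markers went from 70.9 to 423 CPM at 0 h to 1.72 to 3.05 CPM at 20 h in WT libraries, and 6 summed myeloid markers from 115 to 309 CPM to 0.571 to 0.885 CPM. In the sorted WT cells of the LAT experiment, B cell markers were at 2.98 to 4.70 CPM at 0 h and 3.00 to 3.90 CPM at 20 h, whereas summed gamma delta T cell markers went from 24.3 to 34.3 CPM to 4.49 to 5.64 CPM, CD8 T cell markers from 30.3 to 35.0 CPM to 12.4 to 13.8 CPM, myeloid markers (4 of 6 measured) from 2.94 to 5.33 CPM to 0.300 to 0.663 CPM and natural killer cell markers from 0.735 to 4.27 CPM to 0 to 0.128 CPM. The T cell identity genes went from 3680 to 4710 CPM to 1660 to 1900 CPM there. The part of these in the responses was not tested.

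Without LAT, the response of the family was a different one. In Lat-/- cells 6 members were called at 4 h (15.4% of all genes, 35.9% of genes with at least 50 counts) and 5 at 20 h (10.7% and 24.9%): Bcl2a1b, Bcl2l11 and Bbc3 rose, and Bcl2 and Bid fell, at both times. Pmaip1 rose at 4 h (2.03 ± 0.29) and was not called at 20 h (-0.45 ± 0.31). Mcl1, Bax and Bak1 were not called at either time, and neither was Bcl2l1. Bax at 4 h (0.39, adjusted p = 0.0637, edgeR) passed with relative log expression factors (0.41, adjusted p = 0.0461, edgeR) and in a fit of only the groups compared (0.37, adjusted p = 0.0157, edgeR), and Bak1 at 20 h passed without Lat-/- library 3 at 20 h (-0.50, adjusted p = 0.0391, edgeR). Between 4 h and 20 h, 3 members were called in Lat-/- cells (10.1% of all genes), Bcl2a1b (-1.81 ± 0.21), Pmaip1 (-2.48 ± 0.29) and Bax (-0.44 ± 0.15). The Bax call was lost under DESeq2, filterByExpr and scaling by library totals, and without any of the Lat-/- libraries at 4 h or the libraries 1 and 2 at 20 h (-0.46 to -0.30).

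**Figure D2:**
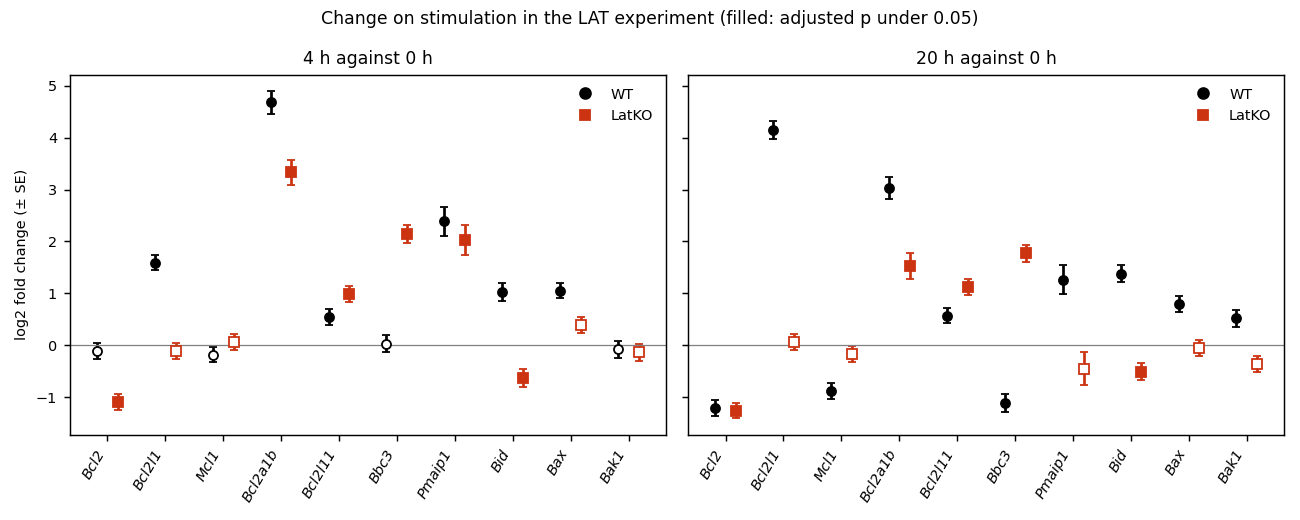
Log2 fold change of each member against 0 h in the LAT experiment, at 4 h (left) and 20 h (right), with SE as bars. Circles are WT and squares Lat-/- cells, and filled symbols passed an adjusted p under 0.05. Bcl2l1 was at 4.15 in WT and 0.06 in Lat-/- cells at 20 h, and Bbc3 at -1.11 and 1.77.

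Bcl2l1 in Lat-/- libraries was at 27.0, 27.6 and 31.8 CPM at 0 h, 28.6, 24.5 and 26.7 CPM at 4 h, and 26.1, 14.2 and 49.8 CPM at 20 h. The 3 times overlapped, and library 3 at 20 h was the highest. The log2 fold change at 20 h was 0.06 ± 0.15, and without that library it was -0.52 (adjusted p = 0.0251, edgeR). This SE draws on the spread of all groups of the experiment and understates that of these libraries, which were at 30 ± 18.1 CPM (SD, n = 3). Without library 2 at 20 h, the change from 4 h to 20 h was 0.55 (adjusted p = 0.0219, edgeR). The difference from WT at 20 h was -4.29 ± 0.17 (adjusted p = 1e-135, edgeR), and the difference between the responses was -1.71 ± 0.22 at 4 h and -4.09 ± 0.22 at 20 h. The lowest WT library at 20 h was at 543 CPM, against 49.8 CPM in the highest Lat-/- library.

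Bcl2a1b still rose in Lat-/- cells, to a lower level. Its libraries were at 1.33, 0.699 and 1.30 CPM at 0 h (the lowest library held 15 counts), 11.3, 11.7 and 10.9 CPM at 4 h, and 2.22, 2.49 and 4.88 CPM at 20 h. The log2 fold change was 3.33 ± 0.24 at 4 h (adjusted p = 1.02e-42, edgeR) and 1.52 ± 0.25 at 20 h. No Lat-/- library overlapped a WT library of the same time, with differences of -1.36 ± 0.25 at 0 h, -2.71 ± 0.20 at 4 h and -2.87 ± 0.21 at 20 h. The responses differed by -1.35 ± 0.32 at 4 h and -1.51 ± 0.33 at 20 h.

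Of the BH3-only genes, Bbc3 and Bcl2l11 stood higher in stimulated Lat-/- than in WT cells. At 20 h Bbc3 had fallen in WT cells and risen in Lat-/- cells, whereas Bcl2l11 had risen in both. Bbc3 in Lat-/- libraries was at 13.7, 14.5 and 16.7 CPM at 0 h, 89.3, 78.2 and 30.1 CPM at 4 h, and 44.4, 55.6 and 53.7 CPM at 20 h. All stimulated libraries lay above all unstimulated ones, and library 3 at 4 h was below libraries 1 and 2. At 30.1 CPM, library 3 was level with the highest WT library at 4 h, at 30.0 CPM. Without Lat-/- library 3 at 4 h, Bbc3 fell from 4 h to 20 h (-0.71, adjusted p = 0.00213, edgeR). Its log2 fold change was 2.14 ± 0.18 at 4 h (adjusted p = 1.29e-31, edgeR) and 1.77 ± 0.17 at 20 h (adjusted p = 5.48e-22, edgeR). The responses of Lat-/- and WT cells differed by 2.11 ± 0.24 and 2.88 ± 0.25. The SEs at 4 h, and their p-value, understate the spread of the Lat-/- libraries, which were at 65.9 ± 31.5 CPM (SD, n = 3) at 4 h. Bcl2l11 was at 102, 113 and 117 CPM at 0 h, 202, 199 and 259 CPM at 4 h, and 215, 259 and 247 CPM at 20 h, log2 fold changes of 0.99 ± 0.15 and 1.12 ± 0.15. It was higher in Lat-/- than in WT cells by 0.89 ± 0.15 at 4 h and 0.98 ± 0.15 at 20 h (adjusted p = 4.62e-08 and 4.4e-10, edgeR). The difference between the Bcl2l11 responses was 0.46 ± 0.21 at 4 h (adjusted p = 0.152, edgeR) and 0.55 ± 0.21 at 20 h (adjusted p = 0.0347, edgeR). At 4 h it passed under scaling by library totals (0.63, adjusted p = 0.0229, edgeR) and without WT library 2 at 0 h (0.61, adjusted p = 0.0124, edgeR) or at 4 h (0.63, adjusted p = 0.0415, edgeR). The call at 20 h was lost under DESeq2 (0.52, adjusted p = 0.0899), relative log expression factors (0.52, adjusted p = 0.0536, edgeR) and the filterByExpr filter (0.56, adjusted p = 0.0628, edgeR), and without any of the WT libraries 1 and 3 at 0 h, WT 1 and 2 at 20 h, Lat-/- 1 at 0 h or Lat-/- 2 at 20 h (0.43 to 0.52). Pmaip1 in Lat-/- cells was at 8.86, 4.58 and 9.88 CPM at 4 h, which overlapped WT libraries (-0.57 ± 0.26, adjusted p = 0.107, edgeR, and -0.77 with adjusted p = 0.0422 without Lat-/- library 3 at 4 h, and -0.57 with adjusted p = 0.0472 with only the groups compared), and at 0.965 to 1.98 CPM at 20 h, a difference from WT of -1.92 ± 0.29. The 3 BH3-only genes thus differed among themselves, with Bbc3 and Bcl2l11 higher and Pmaip1 lower than in WT cells at 20 h.

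Bcl2 in Lat-/- libraries was at 126, 166 and 212 CPM at 0 h, 84.1, 68.9 and 83.5 CPM at 4 h, and 63.3, 78.3 and 68.0 CPM at 20 h. It had fallen by 1.09 ± 0.15 at 4 h on the log2 scale, whereas the WT value of -0.11 ± 0.15 was not called, and the responses differed by -0.98 ± 0.21 at 4 h (adjusted p = 5.97e-05, edgeR) but by -0.06 ± 0.21 at 20 h (adjusted p = 1, edgeR). Mcl1 was at 855, 795 and 808 CPM at 20 h, above the WT libraries (0.75 ± 0.15, adjusted p = 1.41e-06, edgeR), and its response differed by 0.71 ± 0.21. Bcl2 was thus lower earlier and Mcl1 stayed higher than in WT cells.

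Bid in Lat-/- libraries was at 22.0 to 23.9 CPM at 0 h, 10.4 to 19.8 CPM at 4 h and 12.3 to 22.8 CPM at 20 h, with log2 fold changes of -0.63 ± 0.17 and -0.51 ± 0.17. The call at 20 h (adjusted p = 0.0321, edgeR) was lost under DESeq2, under filterByExpr, and without any of the Lat-/- libraries at 0 h or the libraries 1 and 2 at 20 h (-0.55 to -0.32), and that at 4 h without Lat-/- library 2 at 4 h (-0.43, adjusted p = 0.154, edgeR). Against WT, Bid differed by -1.70 ± 0.18 at 4 h and -1.94 ± 0.17 at 20 h. Bax was at 76.5 to 86.5 CPM at 4 h and 51.5 to 78.3 CPM at 20 h, with differences from WT of -0.89 ± 0.15 and -1.08 ± 0.15. The Bax responses differed by -0.66 ± 0.21 at 4 h (adjusted p = 0.017, edgeR), a call lost under scaling by library totals (-0.51) and without any of the WT libraries 1 and 3 at 0 h, WT 1 at 4 h or Lat-/- 1 at 4 h (-0.60 to -0.57). Bak1, at 34.6 to 47.9 CPM at 20 h, differed from WT by -0.92 ± 0.16. Without Lat-/- library 3 at 20 h, Bak1 fell from 0 h to 20 h (-0.50, adjusted p = 0.0391, edgeR). The effectors' transcripts, like that of Bid, were thus lower in Lat-/- than in WT cells at 20 h.

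Counted over the set, 3 of 10 members differed between unstimulated Lat-/- and WT cells (1.59% of all genes), Bcl2 (-0.53 ± 0.15), Bcl2a1b and Bbc3 (-0.79 ± 0.17), and only 1, Bcl2a1b, under DESeq2, filterByExpr or a fold change above 2 as well (0.961% of all genes). For these 0 h counts the share of genes with at least 50 counts was not computed. The Bcl2 call was also lost in a fit of only the groups compared (-0.54, adjusted p = 0.074, edgeR) and without Lat-/- library 1 or 2 or WT library 3 (-0.52 to -0.35), and that of Bbc3 without WT library 2 (-0.52, adjusted p = 0.0999, edgeR). Beside these differences, other markers were lower in the Lat-/- libraries at 0 h: B cell markers at 1.44 to 2.47 against 2.98 to 4.70 CPM, myeloid markers at 1.58 to 2.16 against 2.94 to 5.33 CPM (4 of 6 measured), and Trdc with Tcrg-C2 at 12.3 to 13.3 against 24.3 to 34.3 CPM. Their part was not tested. At 4 h, 7 members differed (23.9% of all genes, 57.3% of genes with at least 50 counts), 2 higher and 5 lower in Lat-/- cells. At 20 h all 10 differed (35.2% and 73.4%), with Mcl1, Bcl2l11 and Bbc3 higher and 7 lower, and 6 with a fold change above 2 as well (24.4% of all genes). The median log2 difference of the 10 was -1.0, against 0 over all genes. The responses to stimulation differed for 6 members at 4 h (15% of all genes, 38.8% of genes with at least 50 counts) and 9 at 20 h (26.3% and 60%), 5 of them with a fold change above 2 (19.5% of all genes). The share of counts from mitochondrial genes was 1.94 to 2.93% in Lat-/- and 0.973 to 1.07% in WT libraries at 20 h, and its part was not tested.

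Per length of annotated exons, the balance among the 4 pro-survival genes shifted from Mcl1 toward Bcl2l1. Mcl1 was the most abundant member per kilobase (kb) in unstimulated WT cells of the LAT experiment, at 262 ± 24.0 CPM per kb (SD, n = 3), followed by Bax at 47.3 ± 8.75, Bcl2 at 26.5 ± 5.36 and Bak1 at 22.2 ± 2.84, the last pair being within their SD. Bcl2l1 was at 7.23 ± 0.826 and Bid at 6.80 ± 0.204 CPM per kb, which did not differ beyond their SD. At 20 h Mcl1 (142 ± 5.51) and Bcl2l1 (128 ± 9.17) led in WT cells, whereas in Lat-/- cells Mcl1 stood at 240 ± 9.07 and Bcl2l1 at 6.57 ± 3.97 CPM per kb. As a share of the reads per kb of the 4 genes, Mcl1 in WT cells was 87.6% ± 0.633 at 0 h, 62.8% ± 3.02 at 4 h and 45.8% ± 0.893 at 20 h, while Bcl2l1 went from 2.42% ± 0.271 over 5.93% ± 0.405 to 41.2% ± 0.785. Bcl2a1b took 24.5% ± 1.61 at 4 h. That value depended on scaling by length and on the copies, being 6.20% ± 0.395 of unscaled counts and 30.7% ± 2.65 with Bcl2a1a and Bcl2a1d added. Of unscaled counts at 20 h, Bcl2l1 took 48.8% ± 1.15 and Mcl1 40.5% ± 0.658, in the opposite order. In Lat-/- cells Mcl1 kept 90.8% to 93% and Bcl2l1 2.52% ± 1.49 at 20 h. These are shares of transcript, not of protein.

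**Figure D3:**
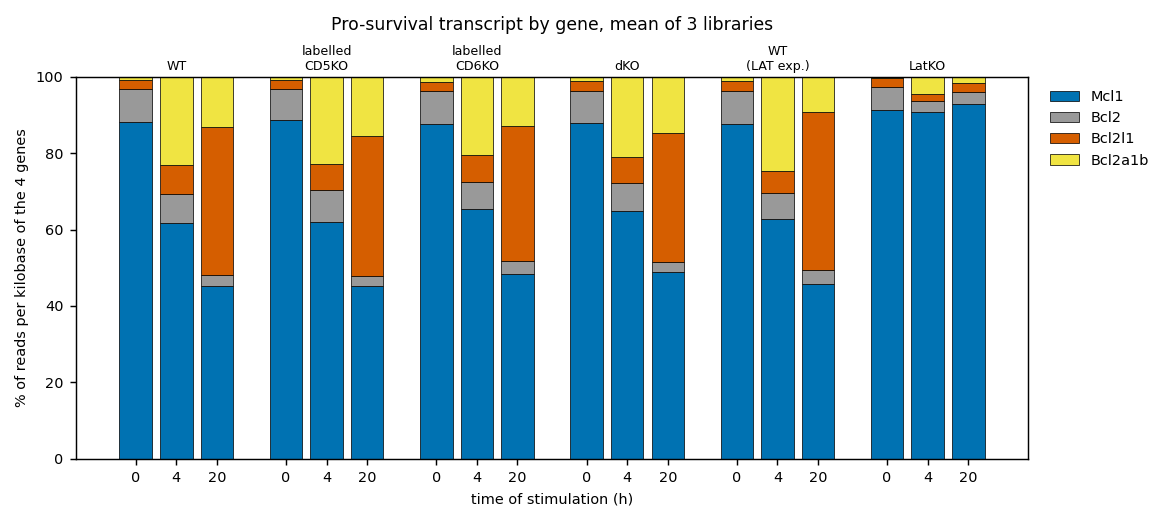
Share of each pro-survival gene in the summed reads per kb of Mcl1, Bcl2, Bcl2l1 and Bcl2a1b (% of the 4, stacked, mean of 3 libraries) at 0, 4 and 20 h in each genotype. The Mcl1 share was 45.1% to 49% at 20 h in the 4 genotypes of the CD5/CD6 experiment and 93% in Lat-/- cells.

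Ratios within a library, which do not depend on scaling, are given as a description. The log2 ratio of Bcl2l1 to Bbc3 counts went from 0.38 ± 0.27 (SD, n = 3) at 0 h to 5.61 ± 0.12 at 20 h in WT cells, and from 0.95 ± 0.03 to -0.95 ± 0.94 in Lat-/- cells. That of Bcl2 to Bcl2l11 went from 1.56 ± 0.18 to -0.20 ± 0.39 in WT and from 0.57 ± 0.28 to -1.78 ± 0.07 in Lat-/- cells. That of Mcl1 to Bcl2l11 went down in both, from 3.46 ± 0.31 to 2.01 ± 0.22 and from 3.06 ± 0.05 to 1.77 ± 0.19.

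In cells of mice without CD5, CD6 or both, no member passed the threshold in the main fit, which did not use the replicate number as a block. Pmaip1 at 4 h in libraries labelled CD5KO passed with that block, under DESeq2 and in a fit of only the groups compared. The question there was whether these receptors shape the transcriptional response, and in edgeR 0 of 10 members were called in each of 9 comparisons with WT. At 0, 4 and 20 h the shares of all genes called were 0.0619%, 0.0867% and 0.0217% for libraries labelled CD5KO, 0%, 0.0031% and 0.0186% for those labelled CD6KO, and 0.0279%, 0.0434% and 0.0465% for dKO libraries. Of these 90 tests, which had SEs of 0.15 to 0.24 and differences of -0.42 to 0.86, 4 had an unadjusted p under 0.05, and DESeq2 called 1 member, Pmaip1, in 1 comparison. For the difference between the responses of mutant and WT cells, 0 members were called in edgeR in each of 6 comparisons (2 of 60 tests had an unadjusted p under 0.05, and DESeq2 called 0), in which 0.0031% and 0.0031% (CD5KO, 4 h and 20 h), 0% and 0.0031% (CD6KO) and 0% and 0% (dKO) of all genes were called. The counts that rest on the 0 h libraries 2 labelled CD5KO and CD6KO were also 0 without them.

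**Figure D4:**
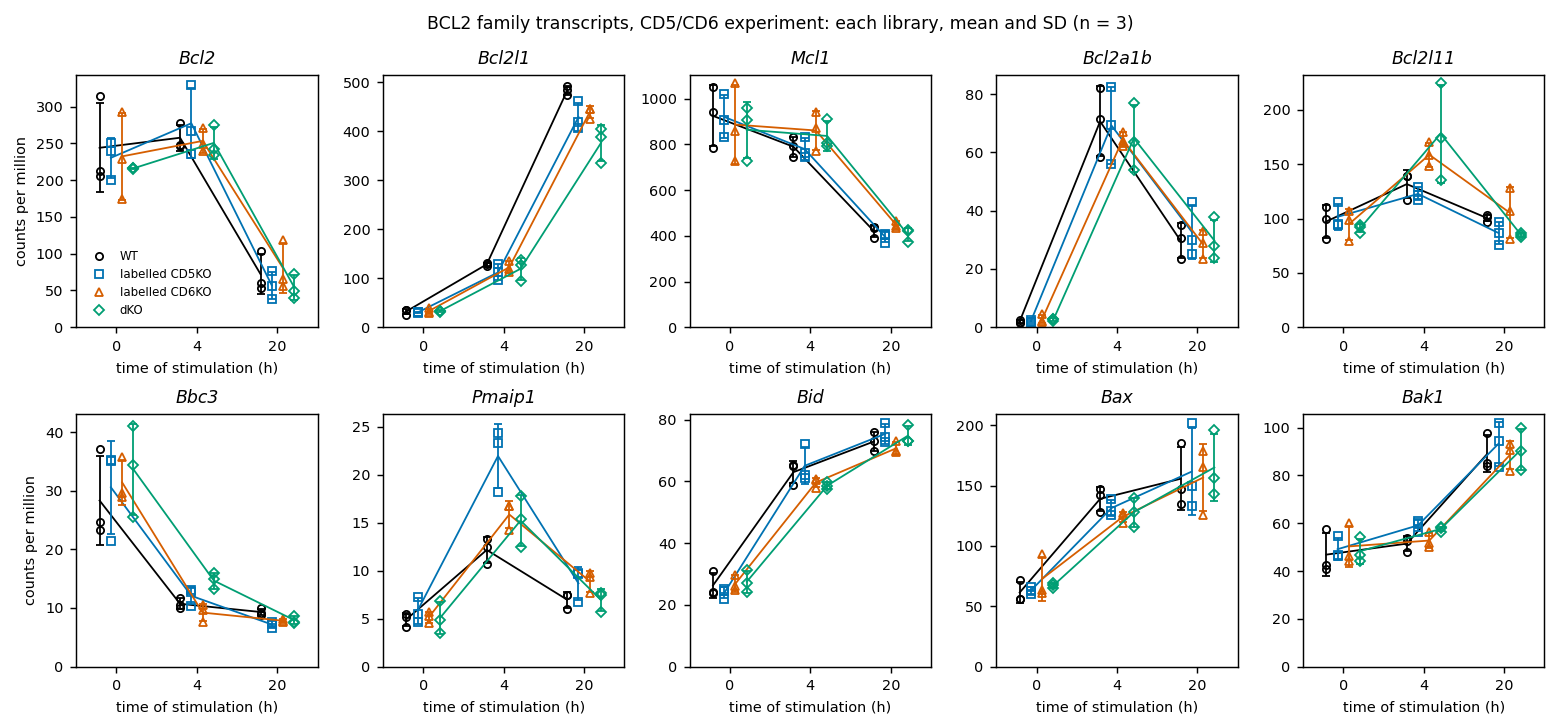
BCL2 family transcripts in the CD5/CD6 experiment, in CPM (linear axis from 0) against time of stimulation in h, with open symbols for libraries, lines through means and bars for the SD of 3 libraries. Bcl2l1 at 20 h lay between 335 and 492 CPM across the 4 genotypes, and Pmaip1 at 4 h was at 18.2 to 24.4 CPM in libraries labelled CD5KO and 10.7 to 13.3 CPM in WT libraries.

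**Figure D5:**
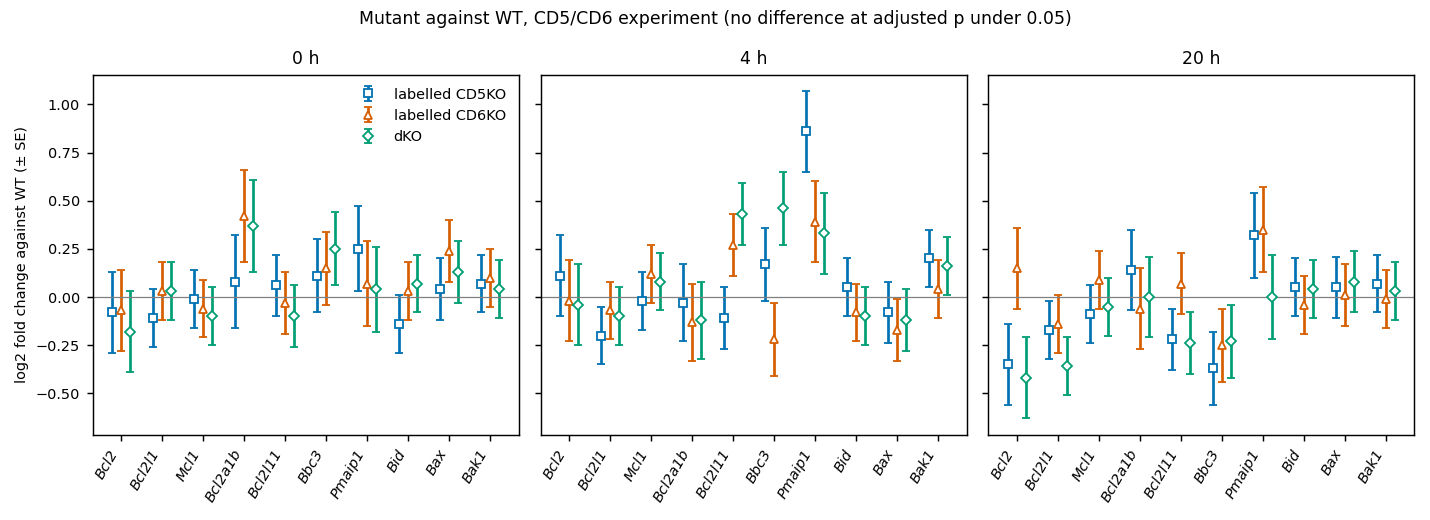
Log2 fold change of each member against WT of the same time in the CD5/CD6 experiment, at 0, 4 and 20 h, with SE as bars. Squares are libraries labelled CD5KO, triangles those labelled CD6KO and diamonds dKO. In this fit, without the replicate number as a block, no value passed an adjusted p under 0.05. The highest was Pmaip1 at 4 h in libraries labelled CD5KO, at 0.86.

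The value nearest to a call was that of Pmaip1 at 4 h. It was at 18.2, 24.4 and 23.3 CPM in the libraries labelled CD5KO and at 10.7, 12.5 and 13.3 CPM in WT libraries, which did not overlap. The log2 fold change was 0.86 ± 0.21 (adjusted p = 0.0925, edgeR). It passed with the replicate number as a block (0.85, adjusted p = 0.0133, edgeR), in a fit of only the groups compared (0.86, adjusted p = 0.0275, edgeR) and under DESeq2 (0.86, adjusted p = 0.0285). Pmaip1 at 4 h in the other mutants was at 14.2, 16.7 and 16.7 CPM (CD6KO, 0.39 ± 0.21) and 12.5, 15.4 and 17.8 CPM (dKO, 0.33 ± 0.21), neither of which passed. Markers of other cells differed between the libraries labelled CD5KO and WT libraries at 4 h, with gamma delta T cell markers at 52.4 to 58.3 against 19.5 to 21.3 CPM, myeloid markers at 7.70 to 19.3 against 22.9 to 36.2 CPM and B cell markers at 22.4 to 35.3 against 38.9 to 140 CPM, none of which overlapped. Their part in the Pmaip1 difference was not tested.

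In dKO cells at 20 h, Bcl2l1 was at 335, 389 and 404 CPM, below the WT libraries at 473, 483 and 492 CPM. The difference of -0.36 ± 0.15 did not pass (adjusted p = 1, edgeR). Values of -0.17 ± 0.15 (CD5KO) and -0.14 ± 0.15 (CD6KO) were also without overlap with WT and did not pass. These comparisons share the same WT libraries, and the share of all genes without overlap was not counted. Bcl2l11 at 4 h was at 135, 174 and 225 CPM in dKO libraries against 117, 139 and 139 CPM in WT libraries, which overlapped (0.43 ± 0.16, adjusted p = 1, edgeR). Bbc3 at 4 h was at 13.2, 15.9 and 14.9 CPM in dKO and 10.5, 11.7 and 9.93 CPM in WT libraries (0.46 ± 0.19, adjusted p = 1, edgeR).

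Those responses had the same directions as in WT cells for every member called. At 4 h, 6 members were called in libraries labelled CD5KO (28.4% of all genes), 7 in those labelled CD6KO (27.2%) and 7 in dKO libraries (26.4%). At 20 h the counts were 9 (38.1%), 9 (36.8%) and 8 (38.3%). These are shares of all genes, and those of well measured genes were not computed for these responses. Without the 0 h libraries 2 that went against their labels, the counts were 6 and 8 for CD5KO and 7 and 9 for CD6KO. The log2 fold change of Bcl2l1 at 20 h was 3.84, 3.74 and 3.51, that of Bcl2a1b at 4 h 5.02, 4.58 and 4.63, and that of Bbc3 at 20 h -2.09, -2.01 and -2.09. Without those libraries the values for CD5KO and CD6KO were 3.81 and 3.62 (Bcl2l1), 4.93 and 4.34 (Bcl2a1b), and -2.33 and -1.93 (Bbc3). Pmaip1 at 20 h in libraries labelled CD5KO was called at 0.58 and not without those libraries (0.40, adjusted p = 0.227, edgeR). It was also lost without any of the libraries 2 and 3 labelled CD5KO at 0 h or 20 h (0.44 to 0.58). The comparisons share WT and unstimulated libraries.

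Of 13 other BCL2 family genes, 11 were measured in the LAT experiment and 6 differed between Lat-/- and WT cells at 20 h, 1 higher and 5 lower, in a comparison that called 35.2% of all genes and 73.4% of genes with at least 50 counts. Bmf, a BH3-only gene, was higher by 3.04 ± 0.25, having fallen by 1.96 ± 0.25 in stimulated WT cells. Bcl2l2 (BCL-W, pro-survival, -2.69 ± 0.37), Bcl2a1d (-2.09 ± 0.29), Bad (-0.62 ± 0.19), Bcl2l12 (-1.01 ± 0.23) and Bcl2l14 (-1.88 ± 0.77) were lower. In the same comparison the apoptosome and caspase genes Apaf1 (0.68 ± 0.16), Casp9 (1.28 ± 0.18) and Casp6 (0.97 ± 0.17) were higher, and Cycs (-1.21 ± 0.32) and Htra2 (-1.01 ± 0.19) lower. Apaf1 and Casp9, which form the initiating complex with cytochrome c, thus stood higher in Lat-/- cells and Cycs, which encodes cytochrome c, lower.

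All 4 genes of inhibitor of apoptosis proteins were called in that comparison, against the same background of 35.2% of all genes and 73.4% of those with at least 50 counts. Birc5, which also acts in cell division, was lower (-6.02 ± 0.31), and Xiap, Birc2 and Birc3 were higher, by 0.73 ± 0.15, 0.95 ± 0.15 and 0.50 ± 0.15. Of 6 death receptor pathway genes, Fasl (0.61 ± 0.17), Cflar (1.35 ± 0.15) and Ripk1 (0.52 ± 0.15) were higher and Fadd (-0.58 ± 0.18) lower. Of 8 genes of p53 and its targets 5 were called, with Trp53inp1 (2.68 ± 0.16) and Mdm2 (0.59 ± 0.15) higher and Trp53 (-0.53 ± 0.15), Cdkn1a (-3.86 ± 0.22) and Phlda3 (-2.87 ± 0.25) lower. Bbc3, Pmaip1 and Bax are also known p53 targets, and their differences of 2.09, -1.92 and -1.08 likewise had no single direction. Against WT, the mutants of the CD5/CD6 experiment had 0 of these listed genes called in edgeR in any of 9 comparisons, with an unadjusted p under 0.05 in 10 of 333 tests.

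The genes whose pattern was most like each member's were found over 18 condition means of log2 CPM, centred within each experiment, among 10086 genes, and these correlations describe a course with time that many genes share. For Bcl2l1 they were Scarb1 (Pearson r = 0.994), Mre11a (0.993) and Trim37 (0.992). For Bcl2a1b they were Spry1 (0.997), Dgat2 (0.995) and Zfp52 (0.993). Mcl1 was most like Cast (0.992), Tmem106a (0.991) and Epas1 (0.990), and Bcl2 most like Pitpnm2 (0.966), Cdh24 (0.965) and Snora31 (0.965). The BH3-only genes had lower values, Bcl2l11 with Mpp5 (0.910), Zfp189 (0.906) and Pign (0.901), Bbc3 with Ccni (0.944), 1700025G04Rik (0.937) and Espn (0.935), and Pmaip1 with Trp53inp2 (0.964), Trib1 (0.958) and Dusp5 (0.955). Bid was most like Tsen54 (0.997) and Nat10 (0.996), Bax like Timm23 (0.994), Lsm12 (0.993) and Mrpl17 (0.992), and Bak1 like Mrps11 (0.987), 1700021F05Rik (0.987) and Rtca (0.984). Among the members themselves, r over the same 18 means was 0.92 between Bcl2l1 and Bid, 0.89 between Bcl2l1 and Bax, -0.84 between Bcl2l1 and Bbc3, and -0.95 between Mcl1 and Bak1. Bcl2l11 stood apart, with every r between -0.38 and 0.34.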

How the data were processed

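RNA was measured in 54 libraries from stranded mRNA preparations. Per the labels and the study's methods, the authors aligned single reads with STAR to GRCm38 and deposited raw counts per gene from featureCounts as 2 tables, 1 per experiment, with 0 columns of per-sample values left unused. The submitters' processing notes name bcl2fastq 2.17.1.14, and the authors tested with DESeq2. The annotation release, the strand setting and the treatment of reads with several matches are not given in the sources used here. Symbols were matched to 55144 of 55385 identifiers.

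From these counts, each table was fitted by itself with edgeR 4.0.16 (R 4.3.3, limma 3.58.1), with TMM factors, 1 coefficient per genotype and time, the quasi-likelihood test and Benjamini-Hochberg adjustment over all genes with at least 1 read. A gene was called at an adjusted p under 0.05, in 35 comparisons. The SE is the size of the log2 fold change divided by the square root of the test's F statistic. It rests on a spread shared over all groups of a table and drawn toward that of other genes, not on the groups compared alone. With filterByExpr, which drops low-count genes, the SE of Bbc3 in Lat-/- against WT at 0 h was 0.29 in place of 0.17. CPM are counts scaled to a library of 1000000 after TMM, and 3 counts correspond to 0.0663 to 0.169 CPM. Alternatives were DESeq2 1.42.0, other size factors, filterByExpr, a replicate block, only the groups compared, summed Bcl2a1 copies, a fold change above 2, and leaving out libraries. The scripts were tested on simulated data. All 10 members are named, genes of 5 further lists where called, and the 3 genes most like each member among those averaging 50 counts or more in both tables. Some genes of these lists are not reported here, and counts and sums leave them out. Members and lists were chosen with earlier results of these data known. The study describes the 3 samples of a condition as independent, but the labels do not name the mice. The p-values therefore rest on the spread between libraries, estimated as above, which is not known to be that between mice.

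Groups shared replicate numbers. The deviations from the group means of libraries with the same number had a mean correlation of 0.179 in the CD5/CD6 experiment and 0.0616 in the LAT experiment, against -0.0888 and -0.0302 for other numbers. Every pair exceeded 0.1 in 11 comparisons, among them CD5KO against WT at 4 h, where the blocked value is given. The pairing is taken from the data, not from a label.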

Additional observations from a re-analysis of the deposited data

Results flagged for a closer look

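In the LAT experiment the response to stimulation differed between Lat-/- and WT cells by a test of the difference itself (edgeR, interaction of genotype and time, adjusted p under 0.05) for 15 values. At 4 h the difference in log2 fold change, Lat-/- minus WT, was -0.98 for Bcl2, -1.71 for Bcl2l1, -1.35 for Bcl2a1b, 2.11 for Bbc3, -0.66 for Bax and -1.65 for Bid. At 20 h it was -4.09 for Bcl2l1, 0.71 for Mcl1, -1.51 for Bcl2a1b, 0.55 for Bcl2l11, 2.88 for Bbc3, -1.71 for Pmaip1, -0.85 for Bax, -0.88 for Bak1 and -1.89 for Bid. The Bcl2 difference was thus present at 4 h, and at 20 h its value was -0.06. The 4 h and 20 h differences share the unstimulated libraries.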

How the results depend on the processing

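Counts of members called moved by more than 1.5 times under these alternatives. CD5KO against WT at 4 h went from 0 to 1 (Pmaip1) under DESeq2, with the replicate block and in a fit of only the groups compared, and the blocked fit changed no other count by that much. For CD5/CD6 experiment WT cells, in which the numbers were not shown to pair the libraries, the block gave calls for Pmaip1 at 20 h against 0 h (0.50, adjusted p = 0.0368, edgeR) and Bcl2l11 at 20 h against 4 h (-0.39, adjusted p = 0.0179, edgeR). Lat-/- against WT at 0 h went from 3 to 1 under DESeq2, filterByExpr and a fold change above 2. The last also gave 3 in place of 6 for WT at 20 h against 4 h in the CD5/CD6 experiment, 6 in place of 10 for WT at 20 h against 0 h in the LAT experiment, 6 in place of 10 for Lat-/- against WT at 20 h, and 5 in place of 9 for the difference in response at 20 h. Leaving out 1 library at a time gave 4 to 7 members for Lat-/- at 20 h against 0 h, 2 to 3 for Lat-/- against WT at 0 h, 7 to 8 at 4 h and 10 at 20 h, and 5 to 7 and 8 to 9 for the differences in response. The comparisons of CD5/CD6 mutants with WT stayed at 0. Bcl2l1 in Lat-/- cells at 20 h against 0 h reversed, from 0.06 to -0.52, without Lat-/- library 3 at 20 h, within a range of -0.52 to 0.42 over left-out libraries. Over all alternatives for single members, 5042 values kept their call or lack of one, 93 lost and 34 gained the call, and 1 gained it in the opposite direction. Values called in neither fit were counted as kept, whatever their direction. Scaling by library totals shifted all genes by up to -0.25 (dKO, 4 h against 0 h). With 3 libraries per condition, precision is limited by their number. The causes of these changes were not tested.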
